A study of Mus musculus with 6 samples.

Results

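Spic and 9 genes of haem breakdown, iron storage and iron transport (Hmox1, Blvrb, Cd163, Slc48a1, Slc11a1, Fth1, Ftl1, Slc40a1 and Tfrc) are described here in monocytes sorted from mouse melanomas. They are 10 of the 18341 genes listed, picked by name for their role when results of these libraries were already known. All 10 passed the filter on low values and were among the 12824 genes tested. Because the set was drawn up with the BAFF comparison known, the values of the 10 genes are given as a description, without a test.

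The libraries came from monocytes sorted out of subcutaneous tumours of B16.F10, a pigmented mouse melanoma line, grown in C57BL/6 mice for 13 days. In 3 libraries the injected cells overexpressed BAFF, the B cell activating factor, and in the 3 others they were control cells of the same line. No treatment is named for either group. The comparison asks how BAFF made by the tumour changes the monocytes that enter it. The labels give neither the sorting markers nor the way BAFF was overexpressed, the sample source names the melanoma line itself, and it is not said that libraries stand for different mice. The p-values therefore rest only on spread between these samples, which may be technical. For the values as deposited, that spread was pooled over genes of similar level, so those p-values do not reflect a gene's own spread.

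Macrophages that clear old red cells take up haemoglobin and haem, open the haem ring, and then either store the iron in ferritin or hand it back to the plasma. Spic is a transcription factor of the ETS family, related to PU.1, and is known as the factor that red pulp macrophages of the spleen need. In mouse monocytes haem induces it by removing the repressor BACH1, which also holds down Hmox1 and the ferritin genes. Iron itself acts on several of the transcripts through iron-responsive elements, short hairpins bound by the iron regulatory proteins IRP1 (Aco1) and IRP2 (Ireb2): a hairpin near the start of a ferritin transcript blocks its translation when iron is scarce, and hairpins in the tail of the transferrin receptor transcript protect it from decay.

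Promoter sequences from RefSeq (GRCm38.p6) were matched for 7 of the 10 genes: Spic, Cd163, Slc11a1, Fth1, Ftl1, Tfrc and Blvrb. The 250 bases before the start of Spic, chr10:88683024-88683273 on the minus strand, are shown because Spic had the widest difference of the set. Capitals mark the only match of the ETS core searched.
Spic promoter: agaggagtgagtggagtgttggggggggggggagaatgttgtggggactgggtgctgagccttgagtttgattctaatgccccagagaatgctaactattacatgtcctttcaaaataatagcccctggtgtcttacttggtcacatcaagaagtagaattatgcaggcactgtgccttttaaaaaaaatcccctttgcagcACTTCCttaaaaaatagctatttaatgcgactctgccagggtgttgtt
The match begins 48 bases before the start and is GGAAGT read on the other strand. Both strands of the 250-base windows of the 7 genes were searched for 3 motifs, and a match of one motif was allowed to overlap another. The ETS core GGAAGT was found for Spic and for 1 of the 2 annotated starts of Tfrc, while 19.7% of all promoters hold it. The antioxidant response element TGACNNNGC, which BACH1 and NRF2 bind, and the AP-1 site TGANTCA were found in none of these windows, while 10.2% and 6.75% of all promoters hold them.

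Hairpins of the iron-responsive type were looked for in the GENCODE M21 transcripts of the same 7 genes, as a C, 5 bases, the loop CAGTGN and 5 bases that pair with the first 5, G with T included. Hmox1, Slc40a1 and Slc48a1 were not searched. Such a pattern occurred in Fth1, Ftl1 and Tfrc, and in 1.34% of all protein-coding genes. The 6 matches are shown with 6 flanking bases on each side because ferritin and transferrin receptor transcripts are the best-known carriers of such hairpins, and capitals mark the loop.
Fth1 hairpin: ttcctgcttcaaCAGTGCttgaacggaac
Ftl1 hairpin: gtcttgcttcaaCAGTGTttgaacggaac
Tfrc hairpin A: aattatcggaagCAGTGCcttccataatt
Tfrc hairpin B: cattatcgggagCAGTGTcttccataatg
Tfrc hairpin C: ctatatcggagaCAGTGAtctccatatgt
Tfrc hairpin D: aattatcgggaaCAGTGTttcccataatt
The ferritin hairpins lie before the coding sequence, at bases 87 to 115 of Fth1-201 and 78 to 106 of Ftl1-201. The Tfrc hairpins lie after it, from base 3315 of Tfrc-201. Ferritin transcript levels therefore do not show how much ferritin protein was made, since that control acts on translation.

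Values are CPM, reads scaled to a common library total, as deposited. The libraries differed in depth: 1 CPM stood for 9.65, 27.6 and 10.1 reads in BAFF tumour libraries 1, 2 and 3 and for 27.3, 7.12 and 4.72 reads in control tumour libraries 1, 2 and 3. BAFF tumour 2 and control tumour 1 are thus the 2 deeper libraries. The listed genes held 61.1% to 66.1% of the CPM total in BAFF tumour libraries and 39.8% to 65.6% in control libraries, with the lowest shares in control tumours 2 and 3. The log2 fold change, BAFF tumour minus control tumour, had a median of 0.23 over the tested genes. Values after median-of-ratios size factors (RLE), which bring that median to 0.01, are therefore set beside the deposited ones. Lyz2, the most abundant of the monocyte markers, averaged 5324 ± 622 CPM across BAFF tumour libraries and 3793 ± 1715 CPM in control libraries (SD, n = 3 each).

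Spic was scarce and had the largest difference of the 10 genes. It stood at 3.73, 9.39 and 5.73 CPM in BAFF tumour libraries 1, 2 and 3, against 3.40, 0.983 and 0.423 CPM in control tumour libraries 1, 2 and 3. The groups did not overlap, but control tumour 1 lay close below BAFF tumour 1 while the other controls lay far lower. These values rest on 36, 259 and 58 reads in the BAFF tumour libraries and on 93, 7 and 2 reads in the controls. The exact Poisson 95% intervals, which cover counting error only, ran from 2.61 to 5.17 CPM in BAFF tumour 1, from 2.75 to 4.17 CPM in control tumour 1 and from 0.0513 to 1.53 CPM in control tumour 3. Counting error alone thus leaves the order of BAFF tumour 1 and control tumour 1 undecided.

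The mean of Spic was 6.28 ± 2.87 CPM across BAFF tumour libraries and 1.60 ± 1.58 CPM in controls (SD, n = 3 each), a ratio of 3.92. On the log2(CPM + 1) scale, which understates the change of so low a gene, the fold change was 1.58 ± 0.31 (SE), and with a pseudocount of 0.1 it was 2.25 ± 0.42. After RLE the levels were 3.47, 8.19 and 5.34 in BAFF tumour libraries and 2.67, 1.08 and 0.629 in controls, with a log2 fold change of 1.46 ± 0.32. Between the 2 deeper libraries, BAFF tumour 2 over control tumour 1, the CPM ratio was 2.76, and among the 4 shallower libraries the ratio of the summed CPM was 6.72, or 3.06 and 5.15 after RLE. The direction was the same within both depths. Leaving out each library in turn gave log2 fold changes between 1.23 and 2.04.

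**Figure D1:**
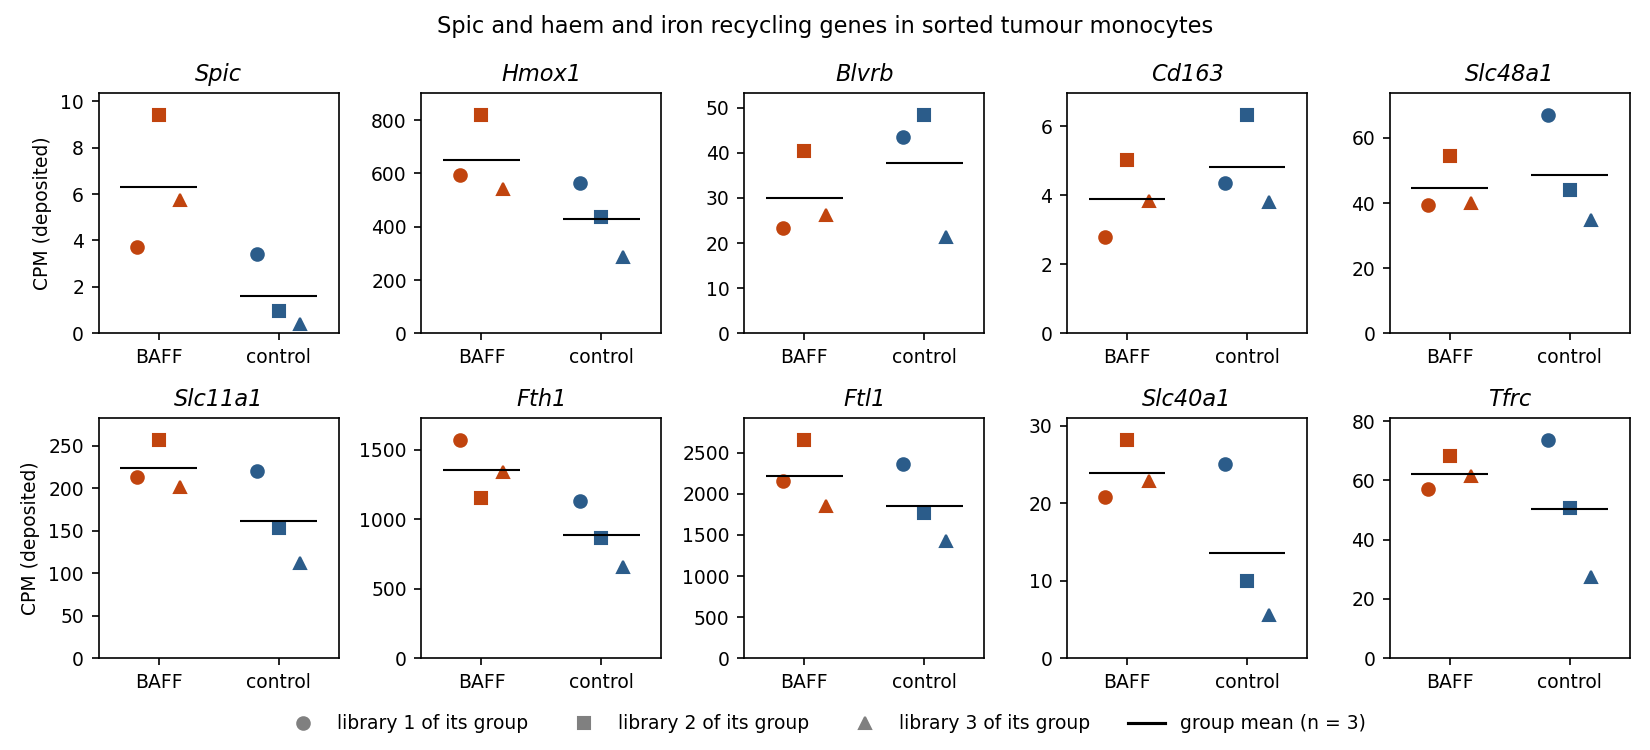
Deposited CPM of the 10 genes, each point a library (BAFF tumour left, control tumour right, symbols by library number) and each line the mean of 3 libraries. Control tumour 3, the triangle on the right, is the lowest of the 6 libraries for 9 of the 10 genes, all but Cd163, and the Spic control libraries span 0.423 to 3.40 CPM.

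Slc40a1 encodes ferroportin, the iron exporter of macrophages, and is a known target of Spic. It stood at 20.7, 28.1 and 22.8 CPM in BAFF tumour libraries, against 25.02, 9.97 and 5.50 CPM in control libraries 1, 2 and 3. The groups overlapped, because control tumour 1 lay above BAFF tumour 1 and 3, and the other controls were well below all BAFF tumour libraries. The means were 23.9 ± 3.82 CPM with BAFF and 13.5 ± 10.2 CPM without it (SD, n = 3 each), with a log2 fold change of 1.01 ± 0.32 (SE), and 0.78 ± 0.24 after RLE. Within the 2 deeper libraries the ratio of BAFF tumour 2 to control tumour 1 was 1.12, and among the 4 shallower ones it was 2.81. The log2 fold change was 1.55 without control tumour 1 and 0.55 without control tumour 3. In control tumour 1 Spic and Slc40a1 stood at 4.84 and 3.23 times the mean of the other 2 control libraries, with Tfrc next at 1.89 times. A high value there was not particular to Spic and Slc40a1. On the deposited scale control tumour 1 was the highest control library for 8 of the 10 genes.

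Hmox1, haem oxygenase 1, opens the haem ring and releases its iron. It stood at 595, 818 and 540.4 CPM in BAFF tumour libraries, against 563, 437 and 286 CPM in controls. On the deposited scale control tumour 1 lay inside the BAFF range, whereas after RLE the groups separated, at 554, 714 and 504 in BAFF tumour libraries and 442, 481 and 425 in controls. The log2 fold change was 0.63 ± 0.32 (SE) on the deposited scale and 0.38 ± 0.13 after RLE, and without control tumour 3 the deposited one was 0.37.

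Blvrb encodes biliverdin reductase B. It stood at 23.4, 40.4 and 26.3 CPM in BAFF tumour libraries, against 43.5, 48.3 and 21.4 CPM in controls, with overlapping groups. Its log2 fold change was -0.28 ± 0.32 (SE), and -0.52 ± 0.20 after RLE, the lowest of the 10 genes, with deposited values from -0.63 to -0.06 when 1 library was left out.

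Cd163, a scavenger receptor for haemoglobin, was as scarce as Spic. It stood at 2.80, 5.04 and 3.85 CPM in BAFF tumour libraries, against 4.35, 6.32 and 3.81 CPM in controls. The groups overlapped, with a log2 fold change of -0.25 ± 0.31 (SE), and -0.46 ± 0.24 after RLE. The depths disagreed in direction: the ratio of BAFF tumour 2 to control tumour 1, the deeper pair, was 1.16, and among the 4 shallower libraries it was 0.656, or 1.28 and 0.491 after RLE. The deposited log2 fold change was -0.08 without BAFF tumour 1 or control tumour 2 and -0.42 without BAFF tumour 2. Control tumour 2 was the highest library for Cd163 and one of the lowest for Spic.

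Slc48a1 (HRG1) carries haem out of the phagosome into the cytosol. It stood at 39.3, 54.4 and 40.2 CPM in BAFF tumour libraries, against 66.95, 43.95 and 34.7 CPM in controls, with overlapping groups. Its log2 fold change was -0.08 ± 0.32 (SE) on the deposited scale, and turned to 0.17 without control tumour 1. After RLE the 3 BAFF tumour libraries, at 36.6, 47.4 and 37.5, lay below the 3 controls, at 52.6, 48.4 and 51.6, with a log2 fold change of -0.33 ± 0.12. Exons of Slc48a1 overlap those of Hdac7 on the other strand, and the library kit does not mark strand, so reads in the overlapping stretch cannot be assigned to one gene. How much of the Slc48a1 value comes from that stretch was not measured.

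Slc11a1 (NRAMP1) is the gene of a carrier described as moving iron and other divalent metals across the phagosome membrane. It stood at 213, 257 and 201 CPM in BAFF tumour libraries, against 220.3, 153 and 111 CPM in controls, where control tumour 1 again lay inside the BAFF range. The log2 fold change was 0.51 ± 0.32 (SE), and after RLE, where the groups no longer overlapped, 0.26 ± 0.10. Without control tumour 3 the deposited value was 0.27. Whether the Slc11a1 protein is functional in the mouse strain used here was not tested. The transcript values therefore do not show how much metal was moved.

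Ferritin is built from heavy and light chains. Fth1, the heavy chain that oxidises iron, stood at 1572, 1153 and 1343 CPM in BAFF tumour libraries, against 1132, 865 and 654 CPM in controls. Its groups did not overlap on either scale, with a log2 fold change of 0.64 ± 0.33 (SE), and 0.39 ± 0.14 after RLE. Ftl1, the light chain that supports the mineral core, stood at 2151, 2655 and 1851 CPM in BAFF tumour libraries, against 2359, 1766 and 1428 CPM in controls. Its groups overlapped, and its log2 fold change was 0.28 ± 0.33, and 0.02 ± 0.15 after RLE, near the medians of all tested genes. Ftl1 has a near-identical copy, Ftl1-ps1, which was listed at 65.7% to 68.6% of the Ftl1 CPM across BAFF tumour libraries and 66.8% to 75.3% in controls, so the division of reads between the copies is uncertain.

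Tfrc, the transferrin receptor, brings in iron and is abundant in dividing cells. It stood at 57.1, 68.2 and 61.3 CPM in BAFF tumour libraries, against 73.6, 50.6 and 27.3 CPM in controls. The BAFF tumour libraries lay between the highest and the middle control. The log2 fold change was 0.40 ± 0.32 (SE), and 0.15 ± 0.13 after RLE, but 0.72 without control tumour 1 and 0.02 without control tumour 3. Of 12 cell cycle genes 10 fell and 0 rose (limma, adjusted p under 0.05), with a summed level of 104 to 112 CPM across BAFF tumour libraries and 199 to 409 CPM in controls. Mki67, the most abundant of them, averaged 42.1 ± 3.77 CPM with BAFF and 118 ± 36.8 CPM without it (SD, n = 3 each; limma adjusted p = 0.000782), and Cenpf, with the smallest p, had a log2 fold change of -1.55 ± 0.32 (limma adjusted p = 0.000139).

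Across the set, 7 log2 fold changes were positive and 3 negative on both scales, with a median of 0.46 against 0.23 over all tested genes, and 0.21 against 0.01 after RLE. Spic and Slc40a1 were past an adjusted p of 0.05 in the fit across all genes, 2 of 10 and both higher, where 5.31% of all tested genes were called in either direction and 1.81% higher. The count was again 2 of 10 after RLE, where 17.1% of all tested genes were called and 7.18% higher. The groups did not overlap in 2 of the 10 genes on the deposited scale, Spic and Fth1, both higher, where 18% of all tested genes did not (11.4% higher and 6.6% lower). After RLE they did not overlap in 5 of 10, 4 higher and 1 lower, where 35.2% of all tested genes did not (17.3% higher and 17.8% lower). Nothing is read from these counts, because the genes were picked with this comparison known.

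**Figure D2:**
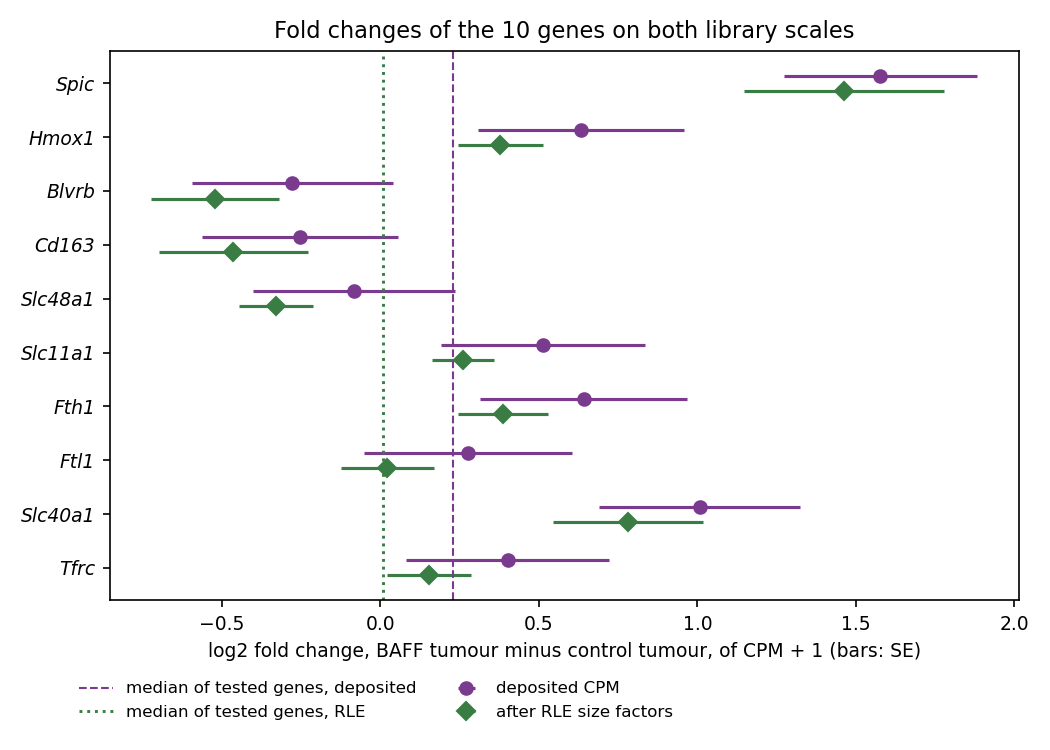
Log2 fold change of CPM + 1, BAFF tumour minus control tumour, for each of the 10 genes, with the SE as bars, on the deposited scale and after RLE, and the median of all tested genes as lines. Spic lies furthest right on both scales, Slc40a1 next, and Blvrb, Cd163 and Slc48a1 lie left of 0.

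Ratios of gene pairs within a library do not depend on the library scale, and the 10 pairs computed were chosen after values of these genes were seen. In 8 of the 10 pairs the groups did not overlap, and the exceptions were Hmox1 to Lyz2 and Fth1 to Ftl1. Nothing is read from this count, because no share over other gene pairs was computed. Slc40a1 to Lyz2 separated only narrowly, at 0.004340 in BAFF tumour 3 and 0.004338 in control tumour 1. The pairs with Spic carry the counting error of that gene. Hmox1 stood to Lyz2 as 0.125, 0.137 and 0.103 in BAFF tumour libraries and as 0.0976, 0.162 and 0.0981 in controls, with the highest value in control tumour 2. Hmox1 stood to Slc48a1 as 15.1, 15.04 and 13.4 in BAFF tumour libraries and as 8.41, 9.95 and 8.24 in controls. Hmox1 stood to Blvrb as 25.4, 20.3 and 20.6 in BAFF tumour libraries and as 12.9, 9.05 and 13.4 in controls. In both pairs every BAFF tumour library exceeded every control, also within the 2 deeper libraries. The uncertain share of Slc48a1 reads that overlap Hdac7 bears on the first of these ratios.

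The ratio of Slc40a1 to Tfrc, the exporter to the importer, was 0.363, 0.412 and 0.372 in BAFF tumour libraries and 0.340, 0.197 and 0.202 in controls. The groups did not overlap, and control tumour 1 again lay next to the BAFF tumour libraries. The ratio of Fth1 to Ftl1 was 0.731, 0.434 and 0.725 in BAFF tumour libraries and 0.480, 0.490 and 0.458 in controls. The high values were those of BAFF tumour 1 and 3, which are shallower libraries, while the deeper BAFF tumour 2 lay below every control. Counted over Ftl1 and Ftl1-ps1 together, BAFF tumour 1 and 3 again lay above every control and BAFF tumour 2 below. The values were 0.437, 0.258 and 0.438 in BAFF tumour libraries and 0.283, 0.280 and 0.275 in controls. The part of depth in this ratio was not tested.

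**Figure D3:**
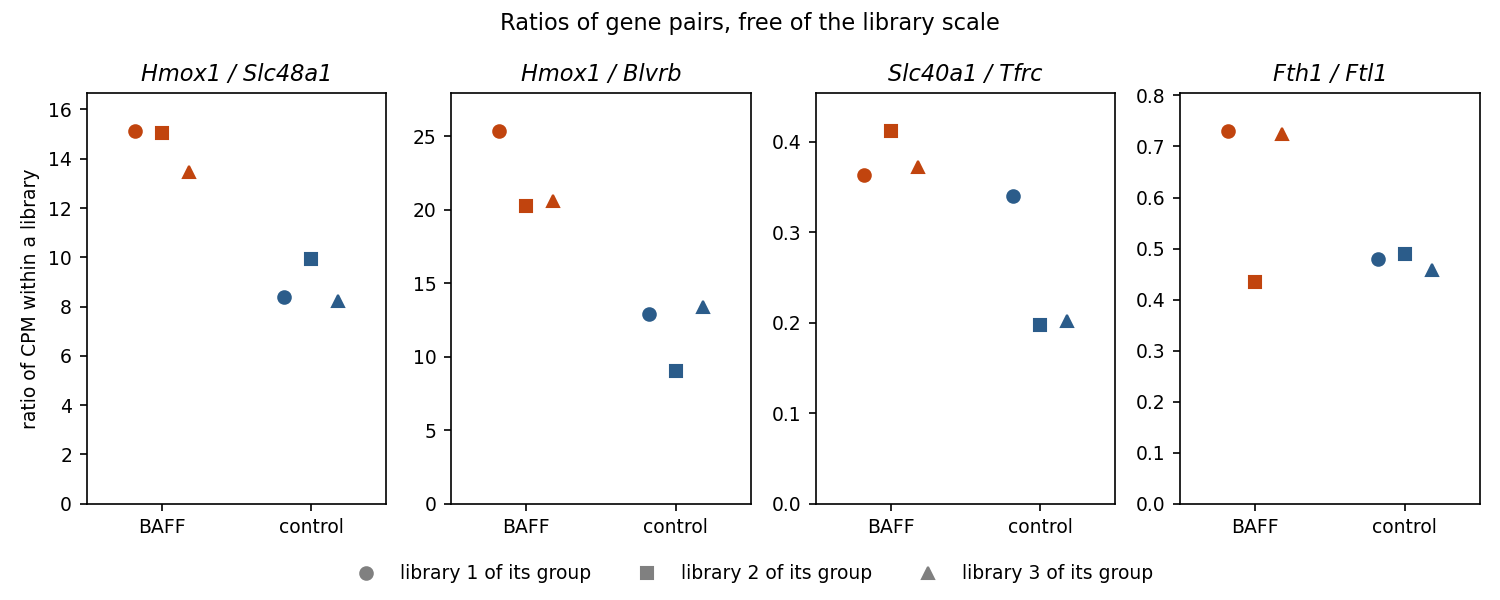
Ratio of the CPM of 2 genes within each library, each point a library (BAFF tumour left, control tumour right, symbols by library number). The ratios of Hmox1 to Slc48a1 and to Blvrb separate the groups, from 13.4 and 20.3 upwards in BAFF tumour libraries and up to 9.95 and 13.4 in controls, while 1 BAFF tumour library has a ratio of Fth1 to Ftl1 below the controls.

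Among the 9096 genes averaging at least 5 CPM, those whose log2(CPM + 1) followed Spic most closely over the 6 libraries were Dgat1, Manf, Klhl21, Gsap and Ndufb1-ps, each with a Pearson r of 0.99. Dgat1 makes triglycerides and Manf encodes a secreted protein of the endoplasmic reticulum stress response. The likeness includes the scale that all genes of a library share: after RLE the r of Ndufb1-ps was 0.26 and that of Gsap 0.96. Of the iron genes Slc40a1 stood nearest to Spic, with an r of 0.94 and 603 in rank, and 0.95 after RLE. Slc11a1 and Hmox1 were nearly level with it, each with an r of 0.93, at 690 and 705 in rank. After RLE their r was 0.89 and 0.81. Blvrb had an r of 0.17, and -0.41 after RLE. These are descriptions over 6 libraries in 2 groups.

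Of 11 tested genes listed for red pulp macrophages 0 rose, 2 fell and 9 did not pass (limma, adjusted p under 0.05). Of all tested genes 1.81% were called higher and 3.5% lower. The median log2 fold change of the list was -0.05, against 0.23 over all tested genes. The list shares Csf1r with the monocyte markers and Mrc1 with the resident macrophage markers, so it does not single out red pulp macrophages. Siglec1, sialoadhesin, fell to 44.8, 50.6 and 86.6 CPM in BAFF tumour libraries, against 207, 169 and 90.2 CPM in controls, which on the log2 scale is -1.32 ± 0.32 (SE; adjusted p = 0.00209 in limma). Cd5l, a secreted protein of tissue macrophages, fell to 1.66, 1.81 and 2.07 CPM, against 9.40, 3.23 and 3.18 CPM in controls (log2 -1.0 ± 0.31; limma adjusted p = 0.0262). No BAFF tumour library reached a control library in either gene. The list was mixed in sign: 5 of the 11 log2 fold changes were positive and none of those genes passed on either scale. They were Treml4, a receptor of splenic macrophages, at 14.6 ± 6.57 CPM with BAFF and 8.56 ± 2.22 CPM without it (SD, n = 3 each; log2 0.65 ± 0.32, limma adjusted p = 0.27), and Csf1r, Sirpa, Mertk and Cd68, with log2 fold changes of 0.39, 0.33, 0.28 and 0.22. These 5 were picked with their values known.

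Vcam1, an adhesion molecule whose gene Spic activates in red pulp macrophages, stood at 61.5, 38.5 and 59.3 CPM in BAFF tumour libraries, against 140.5, 90.01 and 44.5 CPM in controls (log2 -0.66 ± 0.32; limma adjusted p = 0.277); it was picked with its values known. After RLE it passed as lower (-0.91 ± 0.21; adjusted p = 0.01195), as did C1qa, Siglec1, Cd5l and Mrc1, which made 5 lower and 0 higher of 11, where 9.91% of all tested genes were called lower. On the deposited scale Siglec1 no longer passed when BAFF tumour 1, BAFF tumour 2 or control tumour 2 was left out (adjusted p up to 0.185), nor did Cd5l when any BAFF tumour library or control tumour 1 was (up to 0.258). In bulk libraries fewer cells of a type and less RNA per cell cannot be told apart. Among resident macrophage markers 5 of 8 tested fell and 0 rose, and their summed level was 1318 to 1519 CPM across BAFF tumour libraries and 1431 to 3496 CPM in controls. Lyve1, with the smallest p of that list, fell to 1.82 ± 0.75 CPM, against 42.9 ± 23.8 CPM in controls (SD, n = 3 each; log2 -3.87 ± 0.31, limma adjusted p = 1.30e-30).

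**Figure D4:**
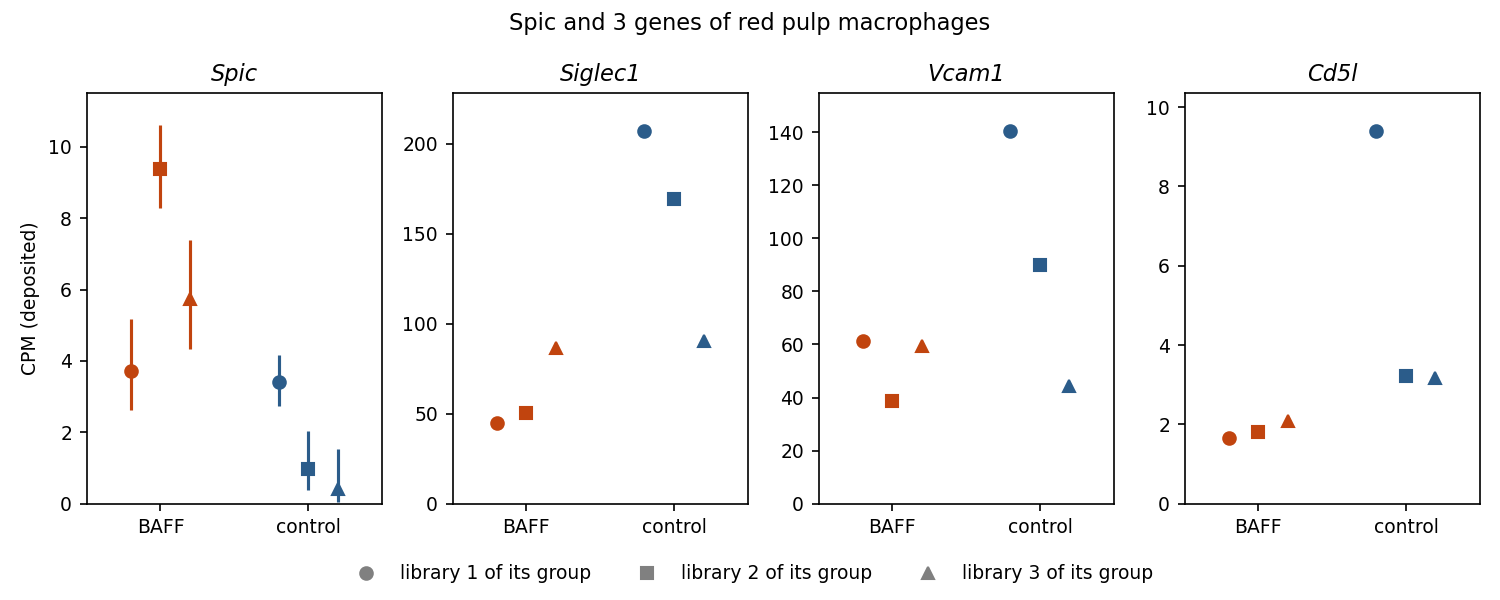
Deposited CPM of Spic, with exact Poisson 95% intervals as bars, and of Siglec1, Vcam1 and Cd5l, each point a library (BAFF tumour left, control tumour right, symbols by library number). Spic is highest in the BAFF tumour libraries, at 3.73 to 9.39 CPM, whereas Siglec1 and Cd5l are highest in the controls. Siglec1, Vcam1 and Cd5l all had negative log2 fold changes. The 5 of 11 tested genes of their list with positive ones are not shown.

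The other genes of the pathways, 83 tested genes that are not among the 10, gave 9 calls, 6 higher and 3 lower, or 10.8%, where 5.31% of all tested genes were called (limma-trend, adjusted p under 0.05). After RLE there were 24 calls, 12 higher and 12 lower, or 28.9%, against 17.1%. Their median log2 fold change was 0.26, against 0.23 over all tested genes, and 0.02 against 0.01 after RLE. These lists include red pulp macrophage genes and BACH1 and NRF2 targets outside iron handling, with Siglec1, Cd5l and Slc7a11 among the 9 calls. Nothing is read from the shares called, because the lists were chosen with earlier results of these data known.

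Of 12 tested genes of haem synthesis 0 passed in limma on either scale. The smallest unadjusted p was 0.0654 on the deposited scale and 0.0423 after RLE, both for Abcb10, so that 0 genes on the deposited scale and 1 after RLE had an unadjusted p under 0.05. Alas1, the rate-limiting enzyme, averaged 53.9 ± 3.44 CPM with BAFF and 44.9 ± 10.9 CPM without it (SD, n = 3 each; limma adjusted p = 0.666); it was picked with its values known. The 3 genes with the smallest p of the list, the mitochondrial transporter genes Abcb10 and Slc25a38 and the oxidase gene Ppox, had log2 fold changes of 0.58, 0.52 and 0.37 (adjusted p = 0.352, 0.415 and 0.579). Alas2, the enzyme of red cell precursors, stood at no more than 0.207 CPM across BAFF tumour libraries and 0.842 CPM in controls, and was not tested.

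Of 11 tested genes of haem uptake, breakdown and export 1 rose, 0 fell and 10 did not pass. Hp, haptoglobin, which binds free haemoglobin, rose to 68.3 ± 17.4 CPM in BAFF tumour libraries, against 31.6 ± 8.69 CPM in controls (SD, n = 3 each). Its log2 fold change was 1.09 ± 0.32 (SE, limma adjusted p = 0.0181), and that of Cd163 was -0.25. Slc46a1, which can carry haem and folate, averaged 1.14 ± 0.57 CPM with BAFF and 2.74 ± 0.45 CPM without it (log2 -0.83 ± 0.30, adjusted p = 0.0841), and Hebp1, a haem-binding protein gene, averaged 2.99 ± 1.34 CPM with BAFF and 5.52 ± 1.21 CPM without it (-0.76 ± 0.31, adjusted p = 0.152), and both passed as lower after RLE (adjusted p = 0.0108 and 0.0202). The related enzyme genes Hmox2 and Blvra had log2 fold changes of 0.18 and 0.23 (limma adjusted p = 0.789 and 0.72). After RLE these were -0.07 and -0.01. Both genes were chosen after their values were seen.

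Of 16 tested genes of iron uptake, storage and export 1 rose and 1 fell. Cp, ceruloplasmin, oxidises the iron that ferroportin exports. It fell to 2.18, 2.25 and 4.44 CPM in BAFF tumour libraries, against 26.3, 5.20 and 7.83 CPM in controls (log2 -1.58 ± 0.31, SE; limma adjusted p = 6.87e-05), with control tumour 1 far above the rest and no overlap between groups. Among only the 4 shallower libraries the call of Cp was lost (log2 -0.83; adjusted p = 0.0523), and without control tumour 1 its log2 fold change was -0.95, still past the threshold. Fibroblast markers, of which 0 of 7 passed in limma (3 with an unadjusted p under 0.05, and 1 past the threshold after RLE), had a summed level of 36.9 to 60.3 CPM across BAFF tumour libraries and of 33.7, 36.1 and 258 CPM in controls, the last in control tumour 1, and their part in the Cp value was not tested. Col3a1, the most abundant of them, had a log2 fold change of -0.33 (adjusted p = 0.616), and Col1a1, with the smallest p, one of -0.92 (adjusted p = 0.0641).

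Lcn2, lipocalin 2, which binds iron carriers of bacteria, rose to 10.05, 1.70 and 1.48 CPM, against 2.30, 0.421 and 0.212 CPM in controls (log2 1.23 ± 0.30; limma adjusted p = 0.00222). The groups overlapped, the call was lost without BAFF tumour 1 (adjusted p = 0.756) or control tumour 2 (0.0853), and after RLE (0.128). Of 7 tested neutrophil markers, Lcn2 among them, 4 rose and 0 fell, namely S100a8, S100a9, Lcn2 and Cxcr2 (limma adjusted p = 0.0125, 0.0203, 0.00222 and 0.0291), and all 7 log2 fold changes were positive, with a median of 0.99. After RLE 2 passed, Csf3r, the most abundant, and Retnlg, both higher (adjusted p = 0.0354 and 0.0499). The neutrophil markers summed to 176 to 239 CPM across BAFF tumour libraries and 87.8 to 194 CPM in controls, and their part in the values of Lcn2 and the other higher genes was not tested. Cd44, the hyaluronan receptor, which has been described as taking up iron, averaged 730.2 ± 57.7 CPM with BAFF and 421 ± 145 CPM without it (log2 0.85 ± 0.32, adjusted p = 0.114), and passed as higher after RLE (0.59 ± 0.10, adjusted p = 0.00249). Slc39a14 and Slc25a28, importers of iron into the cell and the mitochondrion, passed as higher after RLE as well (adjusted p = 0.00749 and 0.0254), while the iron reductase gene Steap3, the iron chaperone gene Pcbp2 and Slc39a8 passed as lower (adjusted p = 0.00365, 0.0283 and 0.0159). These 5 were chosen after their values were seen.

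Of 12 tested genes of iron sensing and iron-sulphur clusters 2 rose and 0 fell. Fbxl5, the iron-binding subunit of the ligase that marks IRP2 for destruction, rose to 176, 199.7 and 139 CPM in BAFF tumour libraries, against 113, 81.9 and 67.7 CPM in controls (log2 0.98 ± 0.32, SE; limma adjusted p = 0.0448). Hif1a, the oxygen- and iron-dependent transcription factor, rose to 383, 376 and 328 CPM, against 228, 179.8 and 147 CPM in controls (0.99 ± 0.32; limma adjusted p = 0.0449). In both genes all BAFF tumour libraries lay above all controls. Neither passed when any BAFF tumour library or control tumour 2 was left out (adjusted p up to 0.513 and 0.394), Hif1a also missed the threshold with no filter on low values (0.0543), and both held after RLE in the full fit and in the 6 fits that left out 1 library. Cisd2, an iron-sulphur protein gene with the next smallest p, had a log2 fold change of 0.57 (adjusted p = 0.365). The iron regulatory protein genes Aco1 and Ireb2, chosen after their values were seen, had log2 fold changes of 0.19 and 0.16, and neither passed on either scale.

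Of 12 regulators of Spic and Hmox1 1 rose and 0 fell. Maff, a small MAF protein that pairs with BACH1 or NRF2, rose to 44.8, 40.6 and 49.8 CPM in BAFF tumour libraries, against 29.8, 20.9 and 12.1 CPM in controls (log2 1.15 ± 0.32, SE; limma adjusted p = 0.00996). Its partner-sharing relative Mafk averaged 67.7 ± 8.76 CPM with BAFF and 39.3 ± 15.2 CPM without it (SD, n = 3 each; 0.84 ± 0.32, adjusted p = 0.113) and passed after RLE (adjusted p = 0.00696). Bach2, a relative of BACH1, averaged 4.79 ± 1.32 CPM with BAFF and 2.16 ± 0.82 CPM without it (0.88 ± 0.31, adjusted p = 0.0695) and also passed after RLE (adjusted p = 0.046). Bach1 itself averaged 263 ± 41.8 CPM with BAFF and 192 ± 64.5 CPM without it (adjusted p = 0.454), and Nfe2l2, which encodes NRF2, 341 ± 37.2 CPM with BAFF and 243 ± 107 CPM without it (adjusted p = 0.378). Neither passed on either scale, and both were chosen after their values were seen. The ratio of Spic to Spi1, the gene of its relative PU.1, was 4.07%, 9.23% and 5.66% in BAFF tumour libraries and 3.56%, 1.39% and 0.763% in controls.

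Of 9 tested BACH1 and NRF2 targets outside iron handling 1 rose and 0 fell. Slc7a11, the cystine importer, rose to 122, 144 and 85.4 CPM, against 57.3, 23.7 and 31.1 CPM in controls (log2 1.69 ± 0.32, SE; limma adjusted p = 3.19e-05), and held in each fit that left out 1 library. Gclc, the catalytic subunit of glutathione synthesis, had a log2 fold change of 0.84 ± 0.32 (adjusted p = 0.106), and Me1, malic enzyme, one of -0.84 ± 0.30 (adjusted p = 0.0743); after RLE Gclc passed as higher and Me1 as lower, with Txnrd1, chosen after its values were seen, also higher. On the deposited scale Maff and Hp missed the threshold when any BAFF tumour library or control tumour 2 was left out (adjusted p up to 0.217 and 0.428), and both held in all 6 such fits after RLE.

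**Figure D5:**
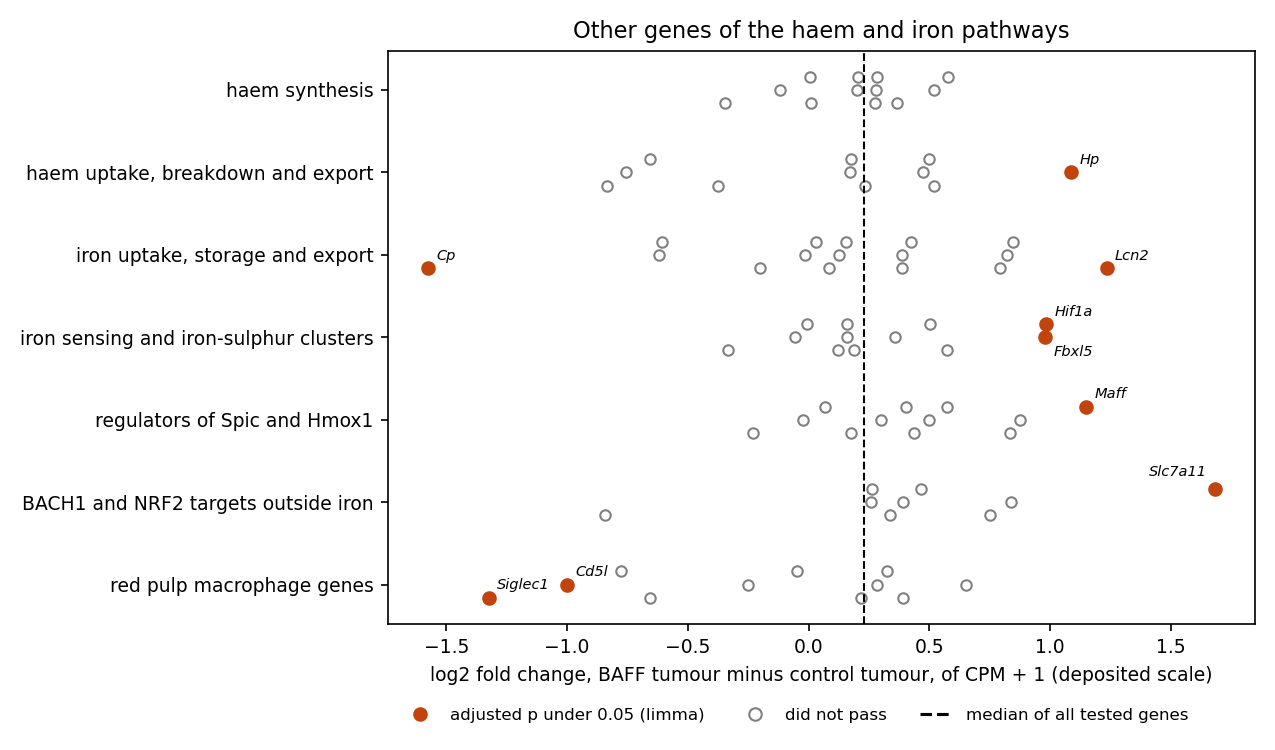
Log2 fold change of CPM + 1, BAFF tumour minus control tumour, on the deposited scale for the tested genes of the 7 pathway lists without the 10 genes, each point a gene, filled where limma's adjusted p was under 0.05, with the median of all tested genes as a dashed line. The 9 filled points are 6 higher and 3 lower genes, and haem synthesis has none.

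Of 11 red cell markers 5 were found, the other 6 are not analysed here, and the 5 summed to 7.54 to 12.02 CPM across BAFF tumour libraries and 5.08 to 36.5 CPM in controls. Hbb-bs, the most abundant, stood at 6.73, 4.17 and 4.12 CPM in BAFF tumour libraries, against 18.3, 9.90 and 2.52 CPM in controls, and Hba-a2 had the smallest p (limma adjusted p = 0.185), so that 0 of 4 tested markers passed, with 3 at an unadjusted p under 0.05. Melanoma markers fell in 9 of 10 tested genes, summing to 86.5 to 178 CPM across BAFF tumour libraries and 432 to 748 CPM in controls, and Dct, the most abundant, had a log2 fold change of -2.07 ± 0.32 (limma adjusted p = 1.19e-07). Monocyte markers summed to 10821 to 12366 CPM across BAFF tumour libraries and 5981 to 11221 CPM in controls, with Chil3 the 1 of 12 that passed (log2 1.62 ± 0.32; limma adjusted p = 8.26e-05). In limma 0 of the 8 tested markers of endothelial, T and B cells passed on the deposited scale, where 2 had unadjusted p-values below 0.05. On the RLE scale the endothelial genes Kdr and Pecam1 passed as higher (limma adjusted p = 0.0103 and 0.0179). Cdh5, the remaining endothelial gene of the 3 tested, went the other way, at 1.19 CPM with BAFF and 1.51 CPM without it. Its log2 fold change was -0.22 on the deposited scale and -0.34 on the RLE scale, and it passed on neither. Cdh5 was chosen after its values were seen. Cd8a and Cd3g of the T cell list and Cd79b of the B cell list averaged 2.84, 1.58 and 1.75 CPM with BAFF and 3.16, 1.51 and 2.06 CPM without it. The part of these cell types in the values of Spic and the iron genes was not tested.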

How the data were processed

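RNA from monocytes sorted out of BAFF-overexpressing or control B16.F10 tumours was prepared, per the labels' protocols, with an unstranded kit (TruSeq RNA v2) for HiSeq sequencing. Partek, STAR (2.4.1d) and Bowtie2 (2.2.5) stand in the submitters' processing notes, with no roles. Neither the genome build nor the annotation or counting rule is stated in what was used here. The authors deposited 1 table of CPM, a unit read from its values: in each library 83.6% to 87.4% of low values were whole multiples of 1 step, to within 0.02, which gives the reads behind 1 CPM. Reads were not whole for all genes, so no count model was used. A control column lacking a letter was matched to control tumour 2 by title. No replicates were alike within sampling noise (smallest chi-square per degree of freedom 7.29).

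limma-trend (limma 3.58.1, R 4.3.3) was fitted to log2(CPM + 1) of the 12824 genes that averaged at least 1 CPM, BAFF tumour minus control tumour, with Benjamini-Hochberg adjusted p under 0.05. The prior degrees of freedom were infinite on the deposited scale, so neither an SE nor a p-value there reflects a gene's own spread. The fit was also run on simulated reads with the same spread for all genes and no differences in library scale. That run therefore does not cover the uneven library scales seen here. The 10 genes, the pathway and marker lists and the tests were chosen with earlier results of these data known. Named were the 10 genes, pathway genes that passed or had the 3 smallest p of a list, for each marker list its most abundant gene and the one with the smallest p, and the 5 genes most like Spic; others are said to be chosen later. Symbols were compared with GENCODE M21 (18238 of 18341 matched). Alternatives were RLE, 2 other filters, a pseudocount of 0.1, a block for the replicate number, and fits lacking 1 library. Same-numbered libraries did not deviate together (r from -0.06 to 0.06).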

Additional observations from a re-analysis of the deposited data

How the results depend on the processing

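The count of genes called, 681 with the deposited CPM, was 2192 after RLE, 316 with a filter at a mean of 5 CPM and 1940 with RLE and the replicate block; leaving out each library gave 170 to 5149 (the highest without control tumour 1, 4615 of them higher), and 1349, 1524, 1694, 1732, 1819 or 1830 with RLE. The count of pathway genes called, 9 with the deposited CPM, was 24, 5 and 25 under the same settings in that order, and leaving out each library gave 2 to 43 (the highest without control tumour 1), and 18, 20, 21, 23 or 24 with RLE. Settings chosen after seeing the data were only the 4 shallower libraries, with 1798 genes (1444 higher, 354 lower) and 17 pathway genes called, the same with RLE, with 947 genes (361 higher, 586 lower) and 10 pathway genes, and a term for the 2 deeper libraries with RLE, with 2012 and 23. The causes were not tested. No called pathway gene changed sign in the alternatives run. Of the 10 genes 7 had a positive log2 fold change, and 6 to 8 in every alternative, the filter at 5 CPM leaving out Spic and Cd163. The numbers do not pair the libraries, and the replicate block alone gave 608 genes and 7 pathway genes, without Fbxl5 and Hif1a (adjusted p = 0.0927 and 0.0783). Spic in control tumours 2 and 3 rests on 7 and 2 reads, which limits its fold change.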
